A study of Homo sapiens with 6 samples.

Results

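The EGR transcription factors EGR1, EGR2, EGR3 and EGR4 and their co-repressors NAB1 and NAB2 were followed in HK-2, an immortalised epithelial line from the human proximal tubule, with and without TGF-β1. The family was taken by gene name, using the entry on the primary chromosome, and it was chosen by the counts of the very contrast described here, in which EGR2 was much higher after 24 hours of TGF-β1. Its 6 genes were 6 of 41497 named entries, and 4 of them passed the count filter that left 14860 genes to test. EGR3 and EGR4 fell under that filter and are described by their reads. All 6 libraries came from 1 wild-type cell line at 24 hours, 3 untreated (Control) and 3 treated with TGF-β1. Poly(A) mRNA was sequenced to a total of 21.9 to 26.9 megacounts per library. The labels describe maintenance in medium with fetal bovine serum, while the methods of the study describe TGF-β treatment in serum-free medium. No source says whether serum was withdrawn from the Control cells too, so treatment and serum cannot be told apart. The dose of TGF-β1 for these libraries is not given in the labels. The methods of the study state a dose for TGF-β treatment experiments in general, and none for the RNA sequencing itself. The replicates are not said to be separate cultures, so p-values measure only the spread between these libraries.

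EGR proteins are zinc finger transcription factors that bind a GC-rich DNA site. Their genes are immediate early genes, which growth factors, serum and stress switch on within minutes, through the RAF, MEK and ERK kinases and the factors ELK and SRF at CArG boxes. NAB proteins have no DNA-binding domain of their own. They bind EGR1, EGR2 and EGR3 and recruit the NuRD remodelling complex through CHD4, and NAB2 is itself a known EGR target, so the pair is usually described as a feedback brake. EGR2 is best known from Schwann cells and the hindbrain, EGR3 from lymphocytes and muscle spindles, and EGR1 has long been studied in fibrosis.

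The DNA before the start sites is shown for the 4 tested members, because CArG boxes were found there in EGR1 and EGR2 and EGR sites in NAB1 and NAB2. The sequences come from the RefSeq promoter table for GRCh38.p14, which held windows for 5 of the 6 members. They run 5′ to 3′ along the strand of the gene, and those of EGR1, EGR2 and NAB2 end at the base before an annotated start. Capitals mark CArG boxes and the core of the cyclic AMP response element (CRE core, TGACG) in the EGR genes, and EGR sites in the NAB genes. A match on the other strand appears as its reverse complement. EGR1 is on the plus strand, with the stretch at chr5:138465229-138465478.
EGR1: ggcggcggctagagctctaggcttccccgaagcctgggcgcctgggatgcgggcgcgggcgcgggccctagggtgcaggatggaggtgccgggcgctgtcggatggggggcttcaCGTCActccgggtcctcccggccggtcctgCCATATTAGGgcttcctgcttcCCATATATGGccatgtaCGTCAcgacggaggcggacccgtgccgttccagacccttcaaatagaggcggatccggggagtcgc
EGR2 is on the minus strand. This stretch, chr10:62816367-62816616, precedes the third of its 3 annotated start sites and lies in an intron of the longer transcripts.
EGR2: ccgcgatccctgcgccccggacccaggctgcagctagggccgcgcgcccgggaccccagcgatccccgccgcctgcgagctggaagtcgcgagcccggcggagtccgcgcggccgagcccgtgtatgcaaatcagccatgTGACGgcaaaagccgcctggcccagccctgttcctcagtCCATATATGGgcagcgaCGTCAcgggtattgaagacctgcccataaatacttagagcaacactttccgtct
NAB2 is on the plus strand, at chr12:57088864-57089113.
NAB2: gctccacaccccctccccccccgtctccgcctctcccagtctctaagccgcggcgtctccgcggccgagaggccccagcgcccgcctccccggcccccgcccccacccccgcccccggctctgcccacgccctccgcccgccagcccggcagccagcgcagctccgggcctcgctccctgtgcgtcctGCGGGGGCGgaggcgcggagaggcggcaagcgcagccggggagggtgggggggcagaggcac
NAB1 is also on the plus strand. Its EGR sites are shown as short stretches around the first exon, at chr2:190648847-190648873 and chr2:190648902-190648922.
NAB1 first stretch: agcggcCGCCCCCGCCCCCGCccggcg
NAB1 second stretch: ggccgcGCGTGGGCGggagcc

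Each window searched ran from 250 bases before a start to 50 bases after it, on both strands. The EGR1 window held 2 CArG boxes, at -105 to -96 and at -83 to -74, and 2 CRE cores. The EGR2 window shown held 1 CArG box, at -71 to -62, between 2 CRE cores. Its CArG box had the same 10 letters as the second box of EGR1. A CArG box was present in 1.29% of all 35116 RefSeq windows, and a CRE core in 24.6%. The windows at the other EGR2 starts held neither, and held 4 and 2 GC boxes (GGGCGG), a motif found in 45.0% of all windows. EGR4 had 2 CRE cores and no CArG box.

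EGR sites were found in the windows of both NAB genes, and no CArG box was. NAB2 held 1 EGR site (GCGTGGGCG or GCGGGGGCG), at -62 to -54, which overlapped 1 of its 4 GC boxes. NAB1 held 3 EGR sites around its first exon, of which 2 overlapped each other and each shared bases with GC boxes. An EGR site was found in 5.77% of all windows. None of the member windows matched the full CRE (TGACGTCA), the ETS site (CCGGAAGT), the AP-1 site (TGANTCA) or the SMAD box (GTCTAGAC), which were in 1.85%, 4.14%, 7.71% and 0.202% of all windows. These matches describe letters only, and binding was not measured.

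**Figure D1:**
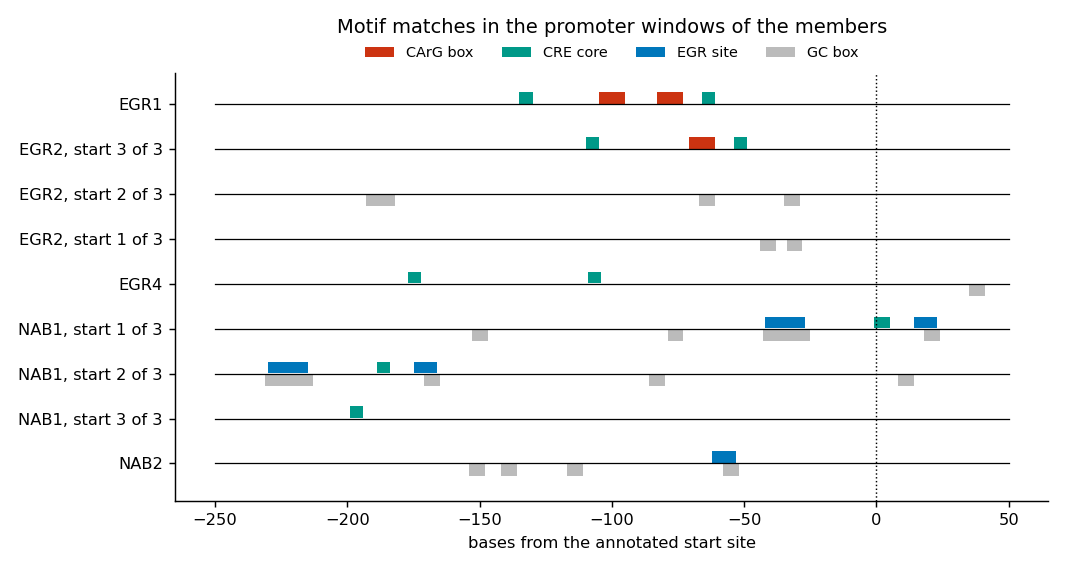
Motif matches in the promoter windows of the 5 members with a RefSeq window, by distance in bases from each annotated start site (dotted line), 1 row per start. CArG boxes lie in EGR1 and 1 EGR2 window, and EGR sites lie in NAB1 and NAB2 windows.

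EGR2, the factor of Schwann cells and the hindbrain, was low in Control and well expressed after TGF-β1. EGR2 (gene-EGR2, GRCh38 chromosome 10, 62811996 to 62819167, minus strand) had 54, 64 and 49 reads in the Control libraries and 1052, 969 and 806 in the TGF-β1 libraries. In CPM, the counts per 1000000 of the TMM-scaled library size, this was 2.39, 2.62 and 2.09 in Control against 40.4, 40.08 and 38.5 after TGF-β1. Every TGF-β1 library lay far above every Control library, and the TGF-β1 libraries lay close together, with a coefficient of variation of 2.59% where counting alone gives 3.26%. The means were 2.37 ± 0.265 and 39.7 ± 1.03 CPM (SD, n = 3), and the fitted log2 fold change was 4.06 ± 0.09 (SE), or 16.7-fold. Summed over libraries, TGF-β1 had 16.8 times the reads of Control (exact 95% interval 14.3 to 19.7), and this and the other intervals cover counting error only. By log2 fold change EGR2 ranked 35 among the 14860 genes tested. Since the family was selected on this contrast, these values are a description with no test. In bulk RNA, more EGR2 per cell and more cells with EGR2 cannot be told apart.

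EGR1, the founding member of the family and an activator of growth factor and matrix genes, was low in both groups. EGR1 (gene-EGR1, chromosome 5, 138465479 to 138469303, plus strand) had 53, 48 and 41 reads in the Control libraries and 88, 62 and 52 in the TGF-β1 libraries. The Control libraries had 2.35, 1.96 and 1.75 CPM, against 3.38, 2.56 and 2.48 with TGF-β1. The groups did not overlap, but the gap between them was small beside the spread within each. The means were 2.02 ± 0.305 and 2.81 ± 0.496 CPM (SD, n = 3), with a log2 fold change of 0.48 ± 0.19 (SE), which was not called. TGF-β1 replicate 1 carried much of it, and without that library the log2 fold change was 0.31 ± 0.20. The same library stood apart from the other TGF-β1 libraries on the second principal component of all genes, at 26.9 against -13.2 and -15.1.

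EGR3, an EGR factor of lymphocytes and muscle spindles, was barely detected. The Control libraries each had 1 read and the TGF-β1 libraries had 6, 4 and 1. The sum was 3 reads against 11, or 3.63 times as many (exact 95% interval 0.960 to 20.3), so a difference was not detectable at this depth. A total of 610 of its exonic bases are shared with LOC107986924 on the other strand, and strand was not stated for the counting. EGR4, a factor known from neurons and the germ line (gene-EGR4, chromosome 2, 73290929 to 73293548, minus strand), had 0, 0 and 1 reads in Control and 1 in each TGF-β1 library. Summed reads were 2.97 times those of Control, with an interval of 0.239 to 156. The reads of both genes were too few to tell which way they differed.

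NAB2, the co-repressor that EGR proteins themselves induce, was higher after TGF-β1. NAB2 (gene-NAB2, chromosome 12, 57089114 to 57095476, plus strand) had 916, 887 and 798 reads in the Control libraries and 1405, 1161 and 999 in the TGF-β1 libraries. The Control libraries had 40.6, 36.3 and 34.0 CPM, against 54.0, 48.0 and 47.7 with TGF-β1. All TGF-β1 libraries lay above all Control libraries. The means were 36.9 ± 3.35 and 49.9 ± 3.53 CPM (SD, n = 3), with a log2 fold change of 0.43 ± 0.08 (SE), or 1.35-fold. Its last exon shares 69 bases, or 2.77% of its exonic length, with STAT6 on the other strand. STAT6 was called lower, with a log2 fold change of -0.24 ± 0.06, the opposite direction to NAB2.

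NAB1, the second co-repressor, was the most abundant member in Control and slightly lower after TGF-β1. NAB1 (gene-NAB1, chromosome 2, 190648860 to 190692766, plus strand) had 2314, 2424 and 2465 reads in the Control libraries and 2171, 2185 and 2030 in the TGF-β1 libraries. The Control libraries had 102.5, 99.1 and 105 CPM, against 83.4, 90.4 and 96.9 with TGF-β1. The groups did not overlap, although the highest TGF-β1 library lay close under the lowest Control library. The means were 102 ± 2.99 and 90.2 ± 6.77 CPM (SD, n = 3), with a log2 fold change of -0.18 ± 0.06 (SE), or 1.13-fold lower. Its call was lost without Control replicate 1, 2 or 3 or without TGF-β1 replicate 2, where the log2 fold change was -0.18, -0.20, -0.16 and -0.19.

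Of the 4 members tested, 2 were called higher (EGR2 and NAB2), 1 was called lower (NAB1) and EGR1 was not called. Calls are edgeR adjusted p-values under 0.05 over all genes, and 22.2% of all genes tested were called higher, 22.1% lower and 44.3% in either direction. The family was selected on this contrast for EGR2, so its counts are a description and nothing is read from them against these shares. Among the 4 members tested, the TGF-β1 libraries lay wholly above Control for 3 (EGR1, EGR2 and NAB2) and wholly below for 1 (NAB1). Of all genes tested, 27.9% and 27.7% did so.

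**Figure D2:**
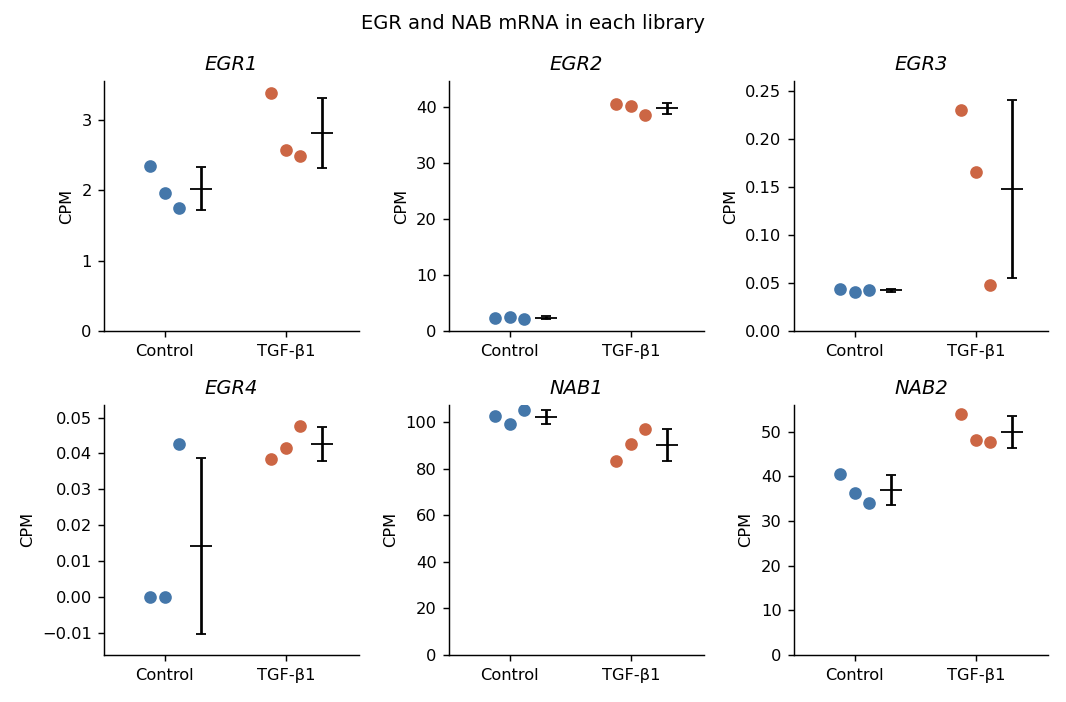
CPM of each member in each library, Control in blue and TGF-β1 in orange, with the mean and SD (n = 3) in black beside the points and a separate linear axis for each gene. EGR2 lies between 2.09 and 2.62 CPM in Control and between 38.5 and 40.4 after TGF-β1, while EGR3 and EGR4 rest on 0 to 6 reads per library.

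Levels of different genes were compared per length, in FPKM as deposited. In Control the order was NAB1 at 21.0 ± 0.696, NAB2 at 15.3 ± 1.26, EGR2 at 0.775 ± 0.0841 and EGR1 at 0.665 ± 0.0949 FPKM (SD, n = 3). EGR3 and EGR4 stood far below, at 0.00841 and 0.00666 FPKM. The values of EGR2 and EGR1 overlapped in Control, as did those of EGR3 and EGR4, and the other neighbours in the order did not. After TGF-β1 the order was NAB2 at 19.2 ± 1.51, NAB1 at 17.2 ± 1.18, EGR2 at 12.06 ± 0.381 and EGR1 at 0.860 ± 0.159 FPKM. NAB2 and NAB1 overlapped there, EGR2 came to lie just under both, and EGR3 and EGR4 overlapped again at the bottom.

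**Figure D3:**
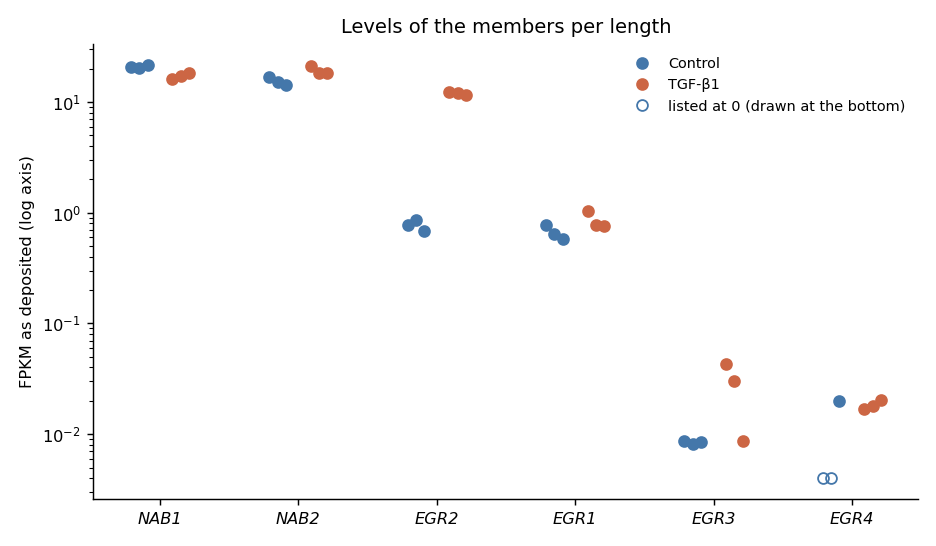
Deposited FPKM of the members in each library on a log axis, in order of the Control mean, with Control in blue and TGF-β1 in orange. EGR2 sits beside EGR1 under 1 FPKM in Control and near the NAB genes, at 11.6 to 12.4 FPKM, after TGF-β1.

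The EGR pool changed from a mixture to mostly EGR2. EGR2 made up 50.04%, 56.7% and 53.1% of the summed EGR FPKM in the Control libraries and 91.8%, 93.6% and 93.7% in the TGF-β1 libraries. By reads, the lowest 95% exact bound of a TGF-β1 library was 90.0%, and the highest bound of a Control library was 65.9%. These bounds cover counting error within a library only. The family was selected for EGR2 on this contrast, so the shares and the summed level restate its rise and are a description with no test. The summed EGR level averaged 1.45 ± 0.137 FPKM in Control against 12.97 ± 0.533 with TGF-β1 (SD, n = 3).

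Within the NAB pool the balance moved from NAB1 towards NAB2, and the summed level differed little on the FPKM scale. The summed NAB level was 36.3 ± 1.13 FPKM in Control and 36.4 ± 0.735 after TGF-β1, a difference smaller than the SD of either group. FPKM carries no correction for composition, and total counts in place of TMM moved the all-gene median by -0.11 on the log2 scale. NAB2 per NAB1 was 0.800, 0.740 and 0.654 in the Control libraries and 1.31, 1.07 and 0.995 in the TGF-β1 libraries, a ratio within each library that scaling does not touch. Summed EGR per summed NAB was 0.0401 ± 0.00349 in Control and 0.356 ± 0.0148 after TGF-β1. NAB mRNA thus exceeded EGR mRNA in every library of both groups. EGR2 per NAB2 went from 0.0507 ± 0.00554 to 0.629 ± 0.0346. The ratios of EGR to NAB carry the rise of EGR2 on which the family was selected, so they too are a description.

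The labels were checked against genes known to respond to TGF-β, and 8 of 8 were called higher, with a median log2 fold change of 1.88 where the all-gene median was 0.0063. Of 13 proximal tubule markers, PAX8, CDH6, KRT8 and KRT18 were well expressed, LRP2 had no reads, and SLC34A1, ANPEP and HNF4A were near 0. Of the 9 tested, 5 were called higher and 3 lower. Beside this and the other counts of this paragraph, 22.2% of all genes tested were called higher and 22.1% lower. The 13 markers summed to 1197 to 1237 CPM in the Control libraries against 1754 to 1938 with TGF-β1. Defining markers of the cell types in which EGR2 is best known were nearly absent. The Schwann cell markers SOX10 and S100B and the leukocyte markers PTPRC and CD3E were at or near 0 in both groups, and the 5 Schwann markers summed to 1.23 to 1.66 CPM in the Control libraries against 0.248 to 0.576 with TGF-β1. The 6 leukocyte markers summed to 95.03 to 104 CPM and 61.6 to 85.4 CPM, most of it CD68, and 2 of 2 tested were called lower. The 6 fibroblast markers summed to 60.0 to 69.4 CPM and 58.2 to 59.3 CPM, most of it LUM, and of 4 tested 2 were called higher (PDGFRB and COL3A1) and 2 lower (LUM and THY1). The 5 endothelial markers summed to 0.940 to 1.68 CPM in the Control libraries against 0 to 0.0955 with TGF-β1. The part of other cells in the values of the EGR and NAB genes was not tested.

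The pathway that switches EGR genes on was expressed in both groups. Of its 13 genes 5 were called higher and 0 lower, where 22.2% and 22.1% of all genes were, and the median log2 fold change was 0.12. The genes that rose were ELK3, a partner of SRF (0.62 ± 0.05, edgeR adjusted p = 2.07e-06), MRTFA, the actin-sensing SRF coactivator (0.55 ± 0.06), SRF itself (0.31 ± 0.07), ELK1 (0.29 ± 0.06) and MAP2K1, which encodes MEK1 (0.23 ± 0.06). BRAF (0.03 ± 0.09) and CREB1 (-0.08 ± 0.07) were not called. ELK4 and MRTFB were at -0.19 ± 0.08 and -0.23 ± 0.10, did not pass the test, and were called lower under some of the alternatives. MAP2K1 lost its call with total counts only.

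Of 22 other immediate early genes tested, 11 were called higher and 7 lower, where 22.2% and 22.1% of all genes were, with a median of 0.21. Among AP-1 genes, JUNB rose from 52.1 ± 2.06 to 442 ± 67.2 CPM (log2 fold change 3.08 ± 0.11, edgeR adjusted p = 4.18e-08). FOSB rose from 16.0 ± 0.210 to 44.1 ± 3.48 CPM (1.46 ± 0.07), and FOS rose from 1.29 ± 0.0689 to 2.31 ± 0.287 CPM (0.84 ± 0.18). JUN did not pass the test, with 204 ± 16.4 and 198 ± 11.9 CPM. The early genes IER2 (0.75 ± 0.07), KLF4 (0.64 ± 0.13) and the phosphatase gene DUSP1 (0.56 ± 0.06) also rose. IER3 was called higher at 3.32 ± 0.42, but 6 entries carry its name and its value is uncertain. It passed the count filter only through the TGF-β1 libraries. The orphan receptor gene NR4A3 fell from 23.2 ± 1.87 to 3.97 ± 0.189 CPM (-2.55 ± 0.09, edgeR adjusted p = 6.73e-09), and PHLDA1 (-1.65 ± 0.05), ATF3 (-0.91 ± 0.08), CCN1 (-0.78 ± 0.06) and BTG2 (-0.63 ± 0.14) fell too. NR4A1 was 8.32 ± 0.384 and 8.63 ± 1.55 CPM and did not pass the test.

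Genes described as EGR1 targets were changed more often than not. Of 32, 25 were tested, 16 were called higher and 6 lower, with a median log2 fold change of 0.59, where 22.2% and 22.1% of all genes were called. COL1A1 is also in the list of TGF-β response genes, and several others are known to answer TGF-β directly. COL1A1, the type I collagen chain, rose from 24.0 ± 0.366 to 236 ± 8.37 CPM (3.30 ± 0.06, edgeR adjusted p = 7.24e-11), and TGFB1, which encodes the ligand itself, rose from 60.0 ± 3.72 to 208 ± 27.5 CPM (1.79 ± 0.09). PDGFB (1.68 ± 0.10), VEGFA (1.36 ± 0.05), MMP14 (1.09 ± 0.06), PDGFA (1.08 ± 0.09) and FN1 (0.98 ± 0.08) rose as well, as did the stress gene GADD45B (1.83 ± 0.07) and the acetylcholinesterase gene ACHE (1.61 ± 0.21). LHB, the luteinising hormone beta chain and a pituitary EGR1 target, rose from 0.141 ± 0.0193 to 3.40 ± 0.449 CPM (4.53 ± 0.25). With 3, 4 and 3 reads in Control against 80, 78 and 82, LHB passed the count filter only through the TGF-β1 libraries. It is counted among the 16 called higher. The neighbouring CGB genes are close paralogs of LHB, so its reads are uncertain.

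Among the targets that fell were GDF15, a stress cytokine gene (-2.56 ± 0.11, edgeR adjusted p = 4.9e-08), the heparanase gene HPSE (-1.27 ± 0.08), tissue factor F3 (-0.74 ± 0.08), GADD45A (-0.54 ± 0.06) and CD44 (-0.26 ± 0.05). ICAM1, PTGES and SOD1 were tested and not called. The 7 targets not tested had few or no reads, and TNF and ALOX5 among them have more than 1 entry of their name. RefSeq windows were found for 19 of the 32 targets, and 9 of those 19 (47.4%) held an EGR site, where 6.95% of all genes with a window did. Among targets with a window, the site was found in 5 of 10 called higher (ACHE, GADD45B, PDGFA, TGFB1 and THBS1) and in 1 of 4 called lower (F3). Such sites are one reason that genes are described as EGR1 targets, so the share describes the list.

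Lists of genes that EGR2 controls in other tissues were examined next. Of 17 Schwann cell and hindbrain genes, 10 were tested, 2 were called higher and 3 lower, near the 22.2% and 22.1% of all genes, with a median of -0.0086. The myelin genes MBP (-1.48 ± 0.10, edgeR adjusted p = 5.87e-07) and PLLP (-1.39 ± 0.14) fell, as did NDRG1 (-0.77 ± 0.08), whose loss causes a neuropathy. PMP22, a classic EGR2 target in myelin, had 29.3 ± 0.271 CPM in Control and 29.3 ± 2.40 CPM after TGF-β1. The axon guidance receptor gene EPHA4, an EGR2 target in the hindbrain, rose from 3.27 ± 0.243 to 6.71 ± 0.684 CPM (1.03 ± 0.13). The hindbrain targets HOXA2 (-0.01 ± 0.14) and HOXB2 (-0.03 ± 0.09) were not called, and MAG and GJB1 were too low to test.

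Of 13 genes that EGR2 and EGR3 control in lymphocytes, 9 were tested, 2 were called higher and 2 lower, with a median of 0.08. These counts lie at the shares of all genes, 22.2% higher and 22.1% lower. The diacylglycerol kinase gene DGKA rose (0.42 ± 0.07, edgeR adjusted p = 0.000594), and BCL6, a repressor of germinal centre B cells, fell (-0.37 ± 0.06). CDKN1A (0.26 ± 0.09) was called higher and SOCS1 (-0.79 ± 0.24) lower, and each lost its call under 6 of the alternatives. The ubiquitin ligase genes CBLB (0.15 ± 0.08) and ITCH (0.08 ± 0.08) were not called. IL2, ZBTB16 and the listed entry of ID3 had no reads.

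The NuRD complex, through which NAB proteins repress, was abundant in both groups. All 13 subunit genes were tested, 6 were called higher and 1 lower, where 22.2% and 22.1% of all genes were, with a median of 0.16. The deacetylase genes HDAC1 (0.49 ± 0.05, edgeR adjusted p = 1.92e-05) and HDAC2 (0.24 ± 0.05) rose, as did the scaffold gene GATAD2A (0.39 ± 0.07) and MTA3 (0.25 ± 0.07). MBD2 (0.23 ± 0.07) and MTA2 (0.16 ± 0.06) were called higher too, but MTA2 lost its call under 9 of the alternatives and MBD2 under 4, and MTA3 lost its call with total counts only. The histone-binding gene RBBP7 fell (-0.19 ± 0.05). CHD4, the subunit that NAB proteins bind, had 539 ± 2.73 and 596 ± 65.3 CPM and did not pass the test (0.14 ± 0.08). Of 4 other zinc finger genes whose products bind EGR sites or GC boxes, SP4 rose (0.47 ± 0.09, edgeR adjusted p = 0.00211), SP1 (-0.20 ± 0.08) and SP3 (-0.04 ± 0.06) were not called, and WT1 had no reads.

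**Figure D4:**
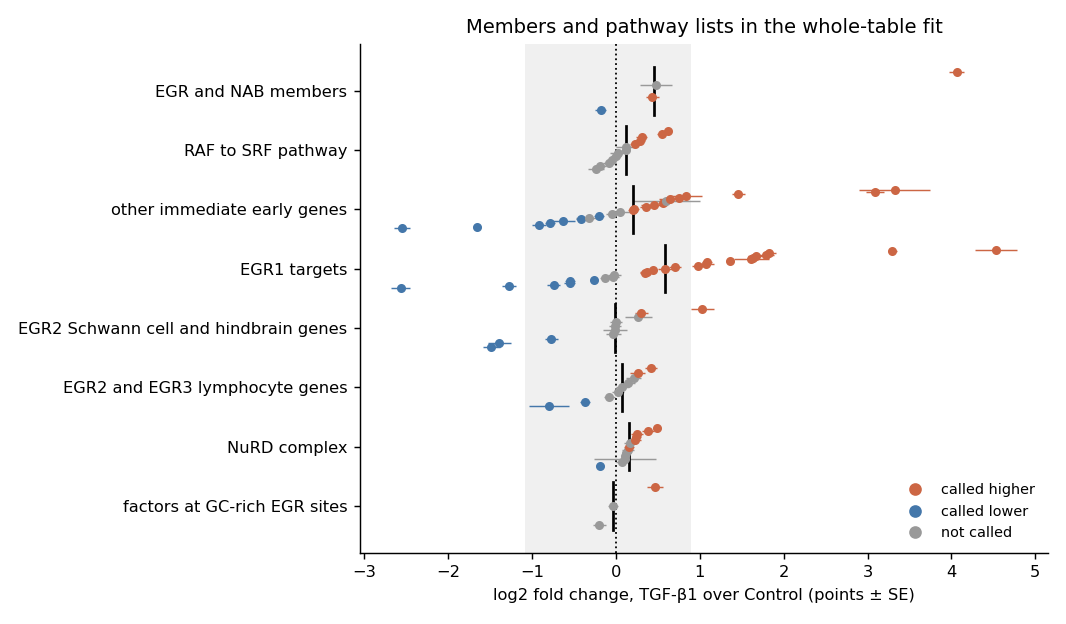
Log2 fold changes (TGF-β1 over Control, ± SE) of the tested members and of the tested genes of 7 lists, with list medians as black bars, the all-gene median as a dotted line and the range from the 5th to the 95th percentile of all genes in grey. EGR2 at 4.06 lies far to the right of the other members, and the EGR1 target list has the highest median of the lists, at 0.59.

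Genes with a pattern most like that of EGR2 were ranked by Euclidean distance over the 6 libraries, on log2 CPM relative to the Control mean of each gene, among 12548 candidates. A prior count of 2 in these log values shrinks the step of low genes such as LHB and COL20A1. Both genes also passed the count filter and the minimum mean of 1 CPM only through the TGF-β1 libraries. The 6 nearest were LHB, COL20A1, ODAPH, CGB7, GASK1B and PLEKHG4B, with distances from 0.357 to 0.537 and Pearson correlations from 0.995 to 0.999 that rest mainly on the step between the groups. COL20A1 (a collagen gene, chromosome 20, 63293169 to 63334847) had 2, 2 and 1 reads in the Control libraries and 69, 71 and 58 in the TGF-β1 libraries. ODAPH, known from tooth enamel (chromosome 4, 75554997 to 75565893), was the most abundant of the 6, at 15.2 ± 1.51 CPM in Control and 229.7 ± 18.7 CPM after TGF-β1. GASK1B (chromosome 4, 158124474 to 158173075), a kinase-like gene of the Golgi, had 3.74 ± 0.463 and 65.6 ± 1.49 CPM, against 2.37 and 39.7 CPM for EGR2. RefSeq windows were found for 5 of these 6 genes, and none of the 5 held an EGR site, where 6.95% of all genes with a window did. So few genes cannot be told apart from that share.

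The surroundings of the members were examined within 500 kb of their start sites. Of all genes tested, 22.2% were called higher, 22.1% lower and 44.3% in either direction. Whether neighbours changed together with a member was not tested. EGR2 had 3 tested neighbours and all 3 were called higher. ADO, a thiol dioxygenase gene 3516 bases from EGR2, rose by 0.79 ± 0.06 on the log2 scale, ZNF365 rose by 1.62 ± 0.08 and NRBF2 by 0.66 ± 0.06. NAB1 had 8 tested neighbours, of which 4 were called lower and 0 higher. Among these were MFSD6 (-0.64 ± 0.06) and NEMP2 (-0.50 ± 0.13). Around NAB2, 5 of 22 were called higher and 4 lower. NEMP1, whose start lies 410 bases from NAB2, fell (-0.31 ± 0.06), while NXPH4 (1.66 ± 0.10) and GLI1 (1.43 ± 0.29) rose further away. Around EGR1, 2 of 13 were called higher and 1 lower. The 2 nearest genes upstream of EGR1, REEP2 (-0.35 ± 0.21, not called) and KDM3B (-0.31 ± 0.07), lay on the other side of 0 from EGR1 itself. The counts were 4 higher and 1 lower of 13 around EGR4, and 2 higher and 4 lower of 12 around EGR3.

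**Figure D5:**
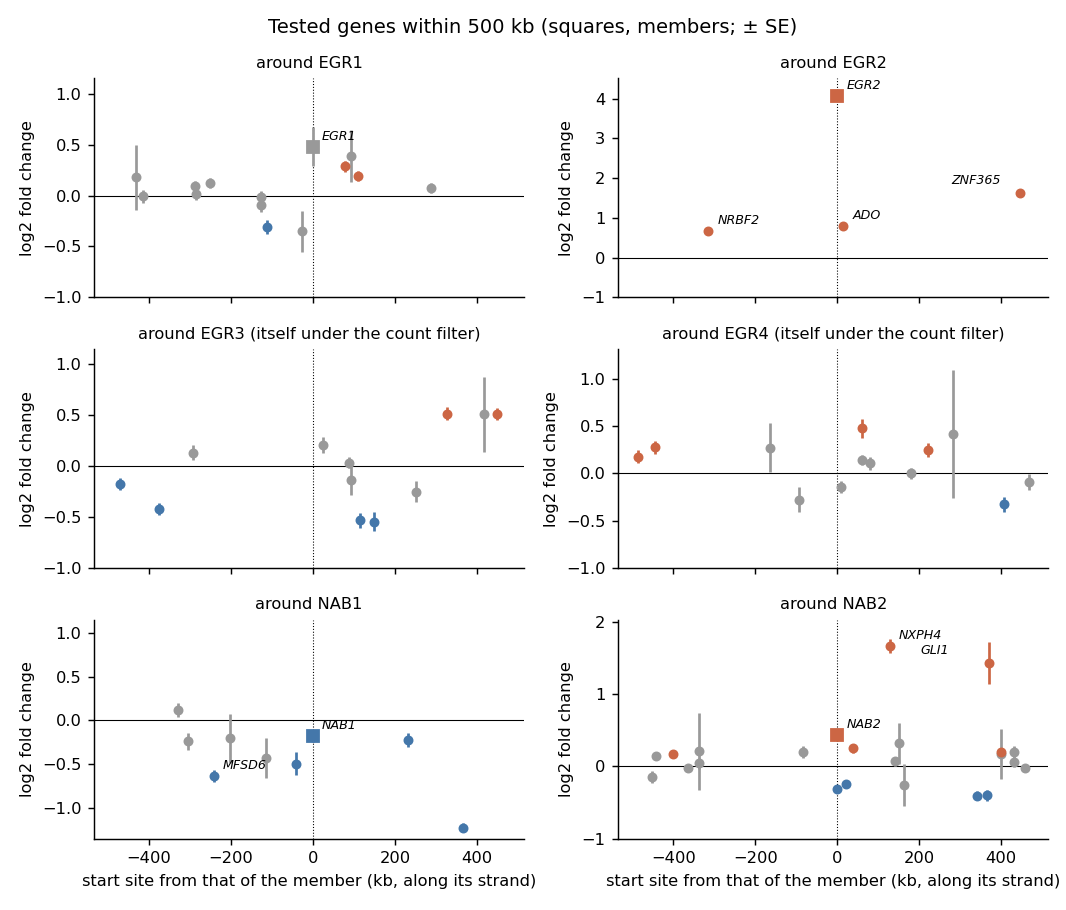
Log2 fold change (± SE) of tested genes against the distance of their start site from that of each member, in kb along the strand of the member, with members as squares, called higher in orange, called lower in blue and not called in grey. The 3 tested neighbours of EGR2 lie between 0.66 and 1.62, and the called neighbours of NAB1 all lie below 0.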

How the data were processed

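RNA of 3 Control and 3 TGF-β1 libraries of HK-2 cells was sequenced in 150 bp read pairs on an MGI platform. Per the submitters' processing notes, CASAVA, featureCounts 2.0.1, DESeq2 1.16.1 and hg38 were used. The aligner, annotation release and strandedness are not given in the sources used here. The authors deposited raw read counts for every gene. TPM and FPKM, also computed by the authors, were deposited beside them. Values recomputed from the counts and gene lengths matched them. Records broken over lines, 7 per library, were rejoined. Of 42095 entries, 598 loci had no name and 0.396% to 0.464% of counts, and were left out.

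Genes passing filterByExpr of edgeR 4.0.16 (minimum count 10) were tested with the quasi-likelihood F test, two-sided, with TMM scaling, robust dispersion and Benjamini-Hochberg adjustment, in R 4.3.3. A gene was called at an adjusted p under 0.05. CPM used TMM-scaled library sizes. EGR3 and EGR4 were fitted among all genes with a count. Intervals are exact binomial. PCR copies could not be told from separate molecules. The members and lists were chosen with earlier results of these data known, and the 500 kb window was added after the data were seen. The genes named were the members, the list genes (called genes with the largest changes first, and those with a described role), the 6 genes most like EGR2 (mean of at least 1 CPM, prior count 2, 1 entry of the name) and neighbours of the members. Some of these genes are not reported here. Scripts were tested on simulated data. Alternatives were DESeq2 1.42.0, limma-voom (limma 3.58.1), RLE size factors, no scaling beyond total counts, no count filter, a minimum mean count of 50, a replicate block, summed entries of a name, TPM in place of FPKM, and leaving out each library.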

Additional observations from a re-analysis of the deposited data

How the results depend on the processing

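The 27 results were recomputed under the alternatives, which gave 357 values, of which 322 stayed within their limit, 35 moved and 0 reversed. For counts the limit was a fixed ratio to the main count. For the 76 log2 fold changes of members it was the pooled SD of the libraries. Only log2 fold changes of called members could be labelled reversed, so the 0 says nothing about the counts. NAB2 was called higher under every alternative run. EGR2 was too, but the family was selected for its rise on this contrast, so its calls are a description only. With total counts only, 2134 genes were called higher and 4590 lower, where TMM gave 3294 and 3288, and NAB1 was at -0.29. In the RAF to SRF list, 3 genes were called lower with total counts only, 2 without a count filter, 2 at a minimum mean count of 50 and 2 with the replicate block. In the lymphocyte list 1 gene was called higher with DESeq2 and 1 with total counts only, and 1 was called lower with DESeq2 and 1 at a minimum mean count of 50. Of NuRD genes 3 were called higher with total counts only. SP1 was called lower, as the 1 such gene of its list, with RLE size factors, with total counts only, without a count filter, at a minimum mean count of 50 and with the replicate block. The stricter count minimum leaves fewer genes to test. The cause of these changes was not tested.

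Leaving out 1 library at a time gave 0 to 1 members called lower, a log2 fold change of 1.27 to 2.09 for EGR3 and 0.82 to 3.17 for EGR4, and 3.98 to 4.14 for EGR2. The range was 0 to 2 genes called lower for the RAF to SRF list, 1 to 2 higher and 1 to 2 lower for the lymphocyte list, and 0 to 1 lower for SP1 and its list. Of NuRD genes, leaving out Control replicate 2 gave 4 called higher and leaving out TGF-β1 replicate 1 gave 8. Fits with 1 library left out kept at least 2 libraries in each group.

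The labels number the replicates alike in both groups, but deviations of same-numbered libraries from their group means had correlations of 0.11, -0.012 and 0.076 across genes, and not every library correlated best with its own number. The libraries share only a number. With the replicate number as a block, EGR2 was at 4.06, NAB2 at 0.43, NAB1 at -0.18 and EGR1 at 0.47, and the calls of the members were as without it. Depth limits EGR3 and EGR4, at 3 and 1 reads over all Control libraries, to values whose direction could not be read. There was a single time point, and hours before 24 were not sampled.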
